A study of Homo sapiens with 23 samples.

Results

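The loss of 10 pluripotency factors was followed through directed differentiation of H1-hESC cells, an established human embryonic stem cell line, into cardiomyocytes. The factors were POU5F1, NANOG, SOX2, PRDM14, ZFP42, ZSCAN10, SALL4, UTF1, DPPA4 and L1TD1, which are 10 of the 57477 genes used from the raw count table. They were chosen by name as members of the human pluripotency network and matched through their Ensembl identifiers. Total RNA depleted of ribosomal RNA was sequenced at 8 times, and the labels call day 0 stem cells, day 1 mesendoderm, day 3 cardiac mesoderm, days 5 and 7 cardiac progenitors, and days 10, 14 and 28 cardiomyocytes. Each day had 3 libraries except day 10, which had 2. All 23 libraries came from this 1 line with the genotype WT. The stem cells were kept in mTesR1 and the derived cardiomyocytes in RPMI with insulin. For each factor the order of loss was read from the first sampled day on which its mean was under 50% and then under 10% of its day 0 mean. Levels are given in CPM, the count of a gene scaled to the size of its library, with TMM, a scaling that sets the bulk of genes equal.

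Human embryonic stem cells are held in the pluripotent state by a small network of transcription factors. POU5F1 (also called OCT4), a POU-domain factor, and SOX2, an HMG-box factor, bind DNA side by side and switch on NANOG, a homeobox factor, as well as their own genes. PRDM14 is a zinc finger protein that represses lineage genes, and ZSCAN10, ZFP42 (also called REX1) and SALL4 are zinc finger proteins of the same cells. UTF1 and DPPA4 are chromatin-associated proteins, and L1TD1 is an RNA-binding protein descended from a retrotransposon. On the way to heart muscle, cells leave this state through a primitive streak-like stage in which part of the network is still active.

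Library totals ran from 4330334 counts in day 5 replicate 3 to 22089595 in day 0 replicate 2, so the weakest factors were measured least precisely in the middle of the course. Marker sums were read beside the labels. The summed level of 7 primitive streak genes was 3225 to 4518 CPM at day 1, against 5.36 to 6.13 at day 0. The sum of 6 cardiac mesoderm genes was 1925 to 2412 CPM at day 3 and 353 to 366 at day 0. The day 0 sum was almost all KDR, with a mean of 354 CPM at day 0 and 176 at day 3. Each other gene of this list had a day 0 mean of 3.52 CPM or less. The sum of 6 cardiac progenitor genes was 517 to 1044 CPM at day 5 and 773 to 809 at day 7, and 907 to 1012 at day 10 and 779 to 1183 at day 14, so it was not highest in the stage it is named for. The sum of 7 endoderm genes reached 441 to 2821 CPM at day 14, and 8 cardiomyocyte genes rose from 71.3 to 75.3 CPM at day 0 to between 41411 and 54388 CPM at day 28. The day 5 libraries were the least alike, with correlations of log2 CPM between 0.892 and 0.945, against 0.953 or more within every other day. In bulk RNA, fewer cells expressing a factor and less of its RNA per cell cannot be told apart. The labels number the replicates but do not say that they were separate cultures, so p-values measure the spread between these libraries, which may be technical.

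The promoters of NANOG and SOX2 are shown because they hold letters that match motifs known for POU5F1 and SOX2, and because these 2 factors left on different days. The SOX2 promoter matches the octamer core alone and holds no SOX core. Use of these sites was not tested. Both stretches are from RefSeq on GRCh38.p14, on the plus strand, and overlap no annotated exon. The NANOG stretch is chr12:7789237-7789356, from base -165 to base -46 relative to the RefSeq start site, and the SOX2 stretch is chr3:181711755-181711874, from base -170 to base -51. Capitals mark the composite octamer and SOX motif in NANOG and the octamer core in SOX2.
NANOG: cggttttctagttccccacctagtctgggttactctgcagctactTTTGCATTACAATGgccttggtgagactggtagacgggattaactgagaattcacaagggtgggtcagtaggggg
SOX2: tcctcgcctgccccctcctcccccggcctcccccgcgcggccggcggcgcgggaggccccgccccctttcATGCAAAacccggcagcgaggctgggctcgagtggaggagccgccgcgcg

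Both strands of the 250 bases before each start site were searched for 3 motifs: the composite TTTGCATNACAATG, the octamer core ATGCAAA, whose other strand reads TTTGCAT, and the SOX core ACAATG. The composite, which contains both cores, lay at bases -120 to -107 of NANOG and in 2 of 27305 promoters, or 0.00732%. The octamer core lay at bases -100 to -94 of SOX2 and in 3.98% of promoters, and the SOX core in 9.45%. Of the 7 factors with a promoter entry, the other 5 (ZFP42, ZSCAN10, UTF1, DPPA4 and L1TD1) held none of the 3 motifs in these bases. A match is a description of the letters, and no match says nothing about binding elsewhere. POU5F1, PRDM14 and SALL4 were not searched.

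At day 0 the 10 factors spanned a wide range of levels. Per length of exon, in CPM per kilobase, POU5F1 was highest at 572, followed by L1TD1 at 286, ZFP42 at 187 and DPPA4 at 175. SOX2 (83.2), ZSCAN10 (63.6), SALL4 (62.4), NANOG (46.6) and PRDM14 (35.3) came next. UTF1 was far lower, at 0.950 CPM per kilobase, from 26, 20 and 19 counts in the 3 libraries. Its early and late values therefore rest on few reads.

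The factors were lost on 3 of the sampled days. UTF1, SOX2, PRDM14 and L1TD1 were under 50% of day 0 at day 1, and NANOG, DPPA4, ZFP42, ZSCAN10 and POU5F1 followed at day 3. SALL4 came last, at day 7. UTF1 was also under 10% at day 1, SOX2, PRDM14, L1TD1 and NANOG by day 3, POU5F1, DPPA4 and ZSCAN10 by day 5, ZFP42 by day 7 and SALL4 by day 28. NANOG was the factor that crossed both thresholds between the same neighbouring samples after day 1. No factor returned above 50% or 10% at a later day.

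**Figure D1:**
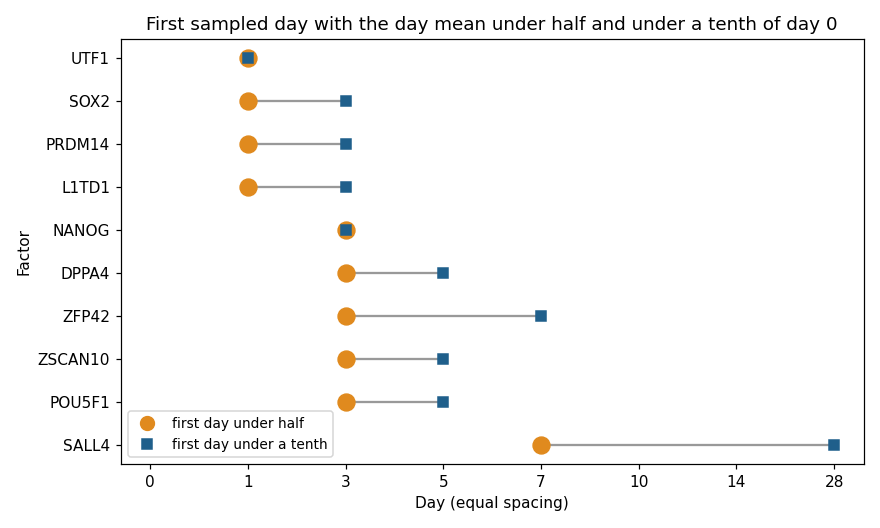
First sampled day on which each factor's mean CPM was under 50% (orange circles) and under 10% (blue squares) of its day 0 mean, with sampled days equally spaced on the horizontal axis. UTF1 and NANOG have both marks on 1 day, and SALL4 has the longest gap, from day 7 to day 28.

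In cumulative counts, 4 factors were under 50% by day 1 and 9 by day 3, and 1 factor was under 10% by day 1, 5 by day 3 and 8 by day 5. Of the 15557 tested genes with at least 1 CPM at day 0, 17.9% were under 50% by day 1 and 28.0% by day 3. The shares under 10% were 0.604% by day 1, 2.55% by day 3, 4.19% by day 5 and 10.3% by day 28, when all 10 factors were. All of these measures share the day 0 libraries. Closest to the thresholds were SALL4 at day 5 (57.0% of day 0) and DPPA4 at day 1 (57.2%), both just over 50%, and SALL4 at day 7 (41.7%), just under it. Around 10% lay SOX2 at day 1 (11.3%) and POU5F1 at day 3 (11.8%) just over, and UTF1 at day 1 (8.90%) just under. Without day 5 replicate 1, SALL4 was already under 50% at day 5, and without day 3 replicate 3, POU5F1 was already under 10% at day 3. Without day 0 replicate 1, day 1 replicate 1 or day 1 replicate 2, UTF1 was under 10% only at day 3.

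SOX2, the partner of POU5F1 (chr3:181711925-181714436 on GRCh38), was one of the earliest to go. Its day 0 libraries held 206, 209 and 212 CPM, and its day 1 libraries 26.4, 26.4 and 18.3. The ranges lay far apart, and the log2 change was -3.14 (SE 0.37, edgeR adjusted p = 5.08e-07). At day 3 only 2.04, 2.02 and 1.11 CPM were left, or 0.825% of day 0.

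PRDM14, the repressor of lineage genes (chr8:70051651-70071693), followed the same course. It went from 83.7, 77.7 and 89.4 CPM at day 0 to 12.3, 7.42 and 11.9 at day 1. The log2 change was -2.99 (SE 0.37, edgeR adjusted p = 1.39e-06). By day 3 it was at 0.577, 0.934 and 0.804 CPM, or 0.923% of day 0, a share close to that of SOX2.

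L1TD1, the RNA-binding protein (chr1:62194849-62212328), began at a mean CPM of 1097 ± 90.2 (SD, n = 3). Its libraries went from 1060, 1200 and 1031 CPM to 144, 185 and 136 at day 1, with no overlap. The log2 change was -2.82 (SE 0.25, edgeR adjusted p = 6.39e-09). Its day 3 libraries were at 52.7, 34.2 and 43.1 CPM. That is 3.95% of day 0, against 0.825% for SOX2 and 0.923% for PRDM14.

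UTF1, the chromatin-associated protein (chr10:133230217-133231558), was at 1.42, 0.942 and 1.10 CPM at day 0. The day 1 libraries held 0, 1 and 3 counts, and a log2 change of -3.52 (SE 0.78) passed the edgeR test (adjusted p = 0.00265). Summed over libraries, 65 counts at day 0 became 4 at day 1 and 2 at day 3, which is 7.77% (95% exact interval 2.06 to 20.9%) and 3.86% (0.458 to 14.5%) of day 0 at equal depth. No UTF1 count was seen at days 5, 7, 10 and 14, which at a floor of 3 counts over the day places it at least 10.2-fold, 8.78-fold, 6.18-fold and 9.59-fold below day 0. These intervals and floors cover counting error only. UTF1 passed the filter on low counts only through day 0, so its calls are given as a description.

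**Figure D2:**
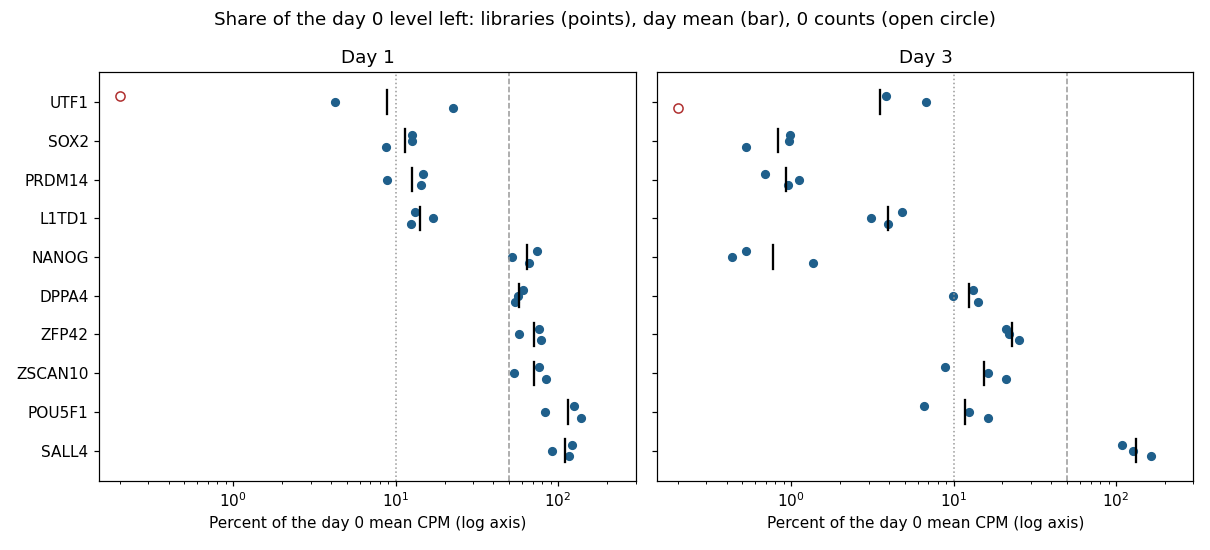
Percent of the day 0 mean CPM left in each library (points) and on average (black bars) at day 1 and day 3, on a log axis, with the 50% and 10% thresholds as dashed and dotted lines and libraries with 0 counts as open circles at the left. At day 1 UTF1, SOX2, PRDM14 and L1TD1 stand to the left of the rest, and at day 3 NANOG has joined SOX2 and PRDM14 under 2% while SALL4 stays above 100%.

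The other 6 factors kept most of their level at day 1. POU5F1 (chr6:31164337-31180731) was at 1547, 1645 and 1735 CPM at day 0 and at 2050.2, 1358 and 2277 at day 1. The day 1 libraries lay on both sides of day 0, and the change was 0.21 (SE 0.45, edgeR adjusted p = 0.759). SALL4 (chr20:51782331-51802521) was at 364, 339 and 378 CPM and then at 441, 332 and 420, again with overlap (0.14, SE 0.25, adjusted p = 0.685).

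NANOG, ZFP42, ZSCAN10 and DPPA4 were lower at day 1 in every library than in any day 0 library, by smaller amounts. NANOG (chr12:7787794-7799146) was at 247, 248 and 259 CPM at day 0 and at 187, 131 and 167 at day 1 (log2 change -0.64, SE 0.35, edgeR adjusted p = 0.160). For ZFP42 (chr4:187995771-188005046) the change was -0.50 (SE 0.25, adjusted p = 0.130), and for ZSCAN10 (chr16:3088890-3099295) -0.49 (SE 0.39, adjusted p = 0.344). DPPA4 (chr3:109326144-109337546) went from 873, 885 and 848 CPM to 527, 493 and 472, a change that passed (-0.80, SE 0.27, adjusted p = 0.0244). The DPPA4 call ended when any 1 of the 6 libraries of the 2 days was left out, with adjusted p between 0.0529 and 0.0952.

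In all, 5 of the 10 factors were lower at day 1 by the edgeR test, 0 were higher and 5 did not pass, where 16.5% of all 22245 genes tested were called lower and 15.3% higher. The median log2 change was -0.72 for the factors and 0.049 for all genes. Without UTF1, 4 of 9 were lower and the median was -0.64. In a fit of the day 0 and day 1 libraries alone, NANOG (adjusted p = 0.00275), ZFP42 (0.00586) and ZSCAN10 (0.0162) passed too, making 8 of 10. Over all genes, that fit also called more, with 5128 lower and 4475 higher against 3668 and 3413.

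Between day 1 and day 3 most of the network fell, and NANOG had the largest log2 change of the 10 factors. NANOG, the homeobox factor, was at 1.33, 1.09 and 3.42 CPM at day 3, from 30, 14 and 34 counts. Its log2 change from day 1 was -6.44 (SE 0.46, edgeR adjusted p = 6.54e-11), and 0.775% of its day 0 level was left.

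POU5F1 fell in the same interval to 108, 205 and 269 CPM (-3.29, SE 0.50, edgeR adjusted p = 1.16e-05). That is 11.8% of its day 0 mean, with the replicates between 6.58% and 16.4%. The drop of POU5F1 thus came after that of its partner SOX2 by 1 sampled day.

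SOX2 (-3.74) and PRDM14 (-3.79) fell again, by more than from day 0 to day 1. ZSCAN10 (-2.21), DPPA4 (-2.20), L1TD1 (-1.84) and ZFP42 (-1.63) also fell, with edgeR adjusted p from 8.39e-07 to 0.00015. In CPM, ZFP42 was at 104, 109 and 126 at day 3, ZSCAN10 at 18.6, 34.3 and 44.2, and DPPA4 at 114, 86.7 and 123. For these 3, all day 3 libraries lay under all day 1 libraries.

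SALL4 stood apart from this step. Its day 3 libraries held 392, 458 and 590 CPM, all above the 3 day 0 libraries, with a log2 change of 0.41 from day 0 (SE 0.25, edgeR adjusted p = 0.196) and 0.27 from day 1 (adjusted p = 0.404). Over the step from day 1 to day 3, 8 factors were called lower and 0 higher, against 19.0% of all genes lower and 18.2% higher. SALL4 and UTF1 did not pass. Against day 0, 9 of 10 were lower at day 3, with 17.9% of all genes lower and 19.1% higher, and the median of the factors was -3.75. Without UTF1, 8 of 9 were lower with a median of -3.08, and DESeq2 did not call UTF1 at day 3 (adjusted p = 0.0722).

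**Figure D3:**
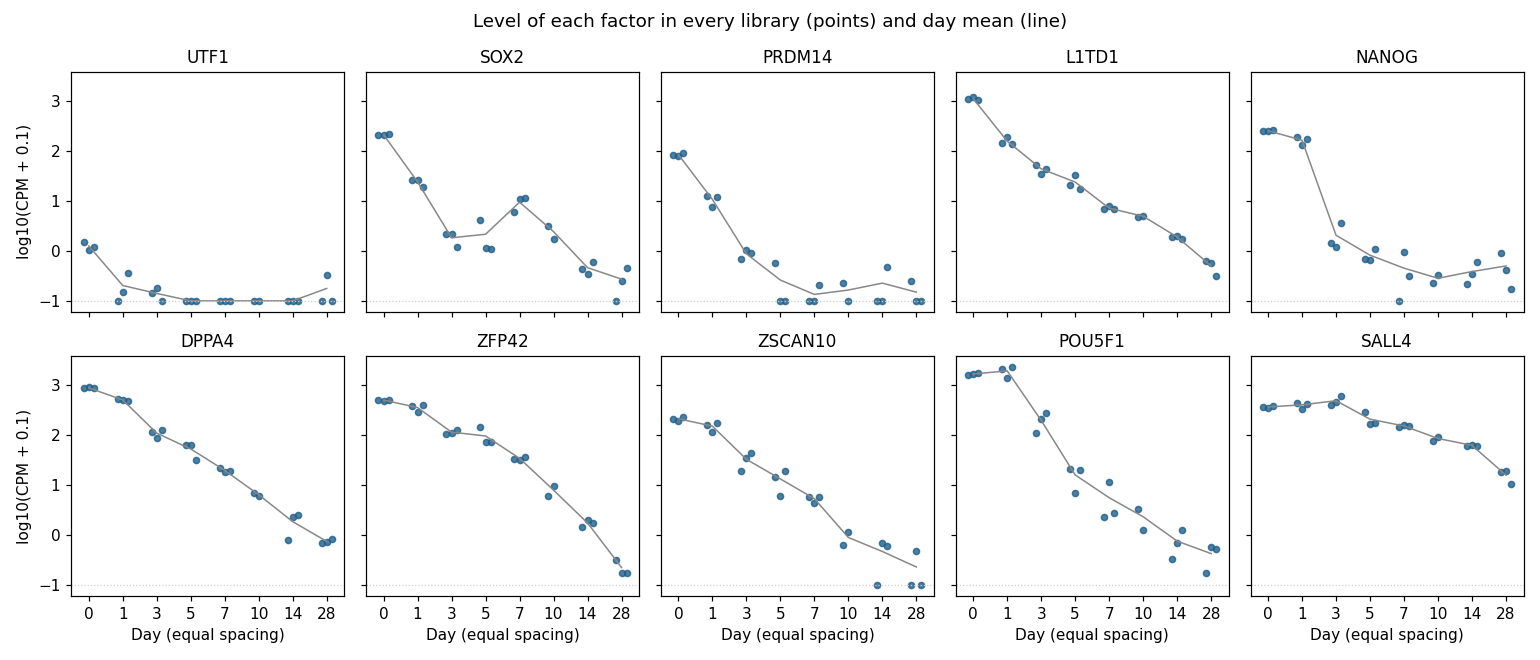
Level of each factor in every library (points) and its day mean (lines), as log10 of CPM plus 0.1, with sampled days equally spaced and the dotted line at 0 CPM. POU5F1 and SALL4 hold their day 0 level at day 1, NANOG drops between day 1 and day 3, and SOX2 has a second, smaller peak at day 7.

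The ratio of each factor to POU5F1 within the same library shows the order without any scaling between libraries. It was taken as log2 of the counts, with 0.5 added to both. From day 0 to day 1 the ratio changed by -3.79 for UTF1, -3.33 for SOX2, -3.19 for PRDM14 and -3.01 for L1TD1. It changed by -0.98 for DPPA4, -0.82 for NANOG, -0.69 for ZFP42 and -0.68 for ZSCAN10. In none of these 8 did day 1 libraries overlap with day 0 (exact two-sided permutation p = 0.1 each, the smallest that 3 against 3 can give, 0.12 after adjustment over 18 tests). The ratio of SALL4 to POU5F1 changed by -0.040, and the libraries of the 2 days overlapped (exact permutation p = 0.9).

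By day 3, POU5F1 itself had fallen, and the order around it had changed. NANOG (-3.99), SOX2 (-3.76), PRDM14 (-3.54) and L1TD1 (-1.50) had lost more than POU5F1. ZSCAN10 (0.40), ZFP42 (1.04) and SALL4 (3.57) had lost less, and none of these 7 overlapped with day 0 (exact permutation p = 0.1 each). DPPA4 (0.16, exact permutation p = 1.0) and UTF1 (-0.81, exact permutation p = 0.2) overlapped. The share that L1TD1 had lost relative to POU5F1 was thus smaller at day 3 than at day 1, while that of NANOG was larger. Both comparisons use the same 3 day 0 libraries.

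**Figure D4:**
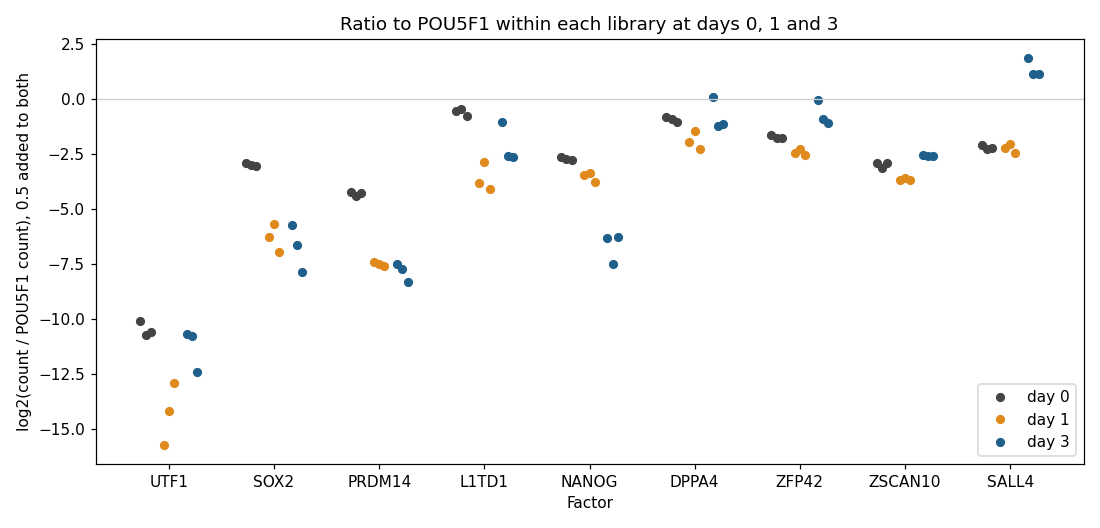
Log2 of the count of each factor over the POU5F1 count in the same library, with 0.5 added to both, at day 0 (grey), day 1 (orange) and day 3 (blue). SALL4 overlaps between day 0 and day 1 and lies above 0 at day 3, and NANOG moves from a mean of -2.71 at day 0 to -6.70 at day 3.

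From day 3 to day 5 the fall of POU5F1 went on. Its libraries were at 20.4, 6.83 and 19.9 CPM at day 5, a log2 change of -3.65 (SE 0.52, edgeR adjusted p = 8.01e-06), which left 0.956% of day 0. SALL4 now fell for the first time, to 283, 162 and 171 CPM (-1.22, SE 0.25, adjusted p = 0.000792).

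DPPA4 (-1.04, adjusted p = 0.00732), L1TD1 (-0.87, 0.0136) and ZSCAN10 (-1.35, 0.0249) also passed the edgeR test. The ZSCAN10 libraries of the 2 days overlapped. ZFP42 was at 141, 72.3 and 70.8 CPM, across its day 3 range (-0.25, adjusted p = 0.567), at 22.8% and 19.1% of day 0 on days 3 and 5. Of the 10 factors, 5 were lower and 0 higher, against 6.33% of all genes lower and 10.3% higher. This step rests on the least alike libraries. In a fit of the 6 libraries of these days POU5F1 alone passed, and the adjusted p was 0.0912 for SALL4, 0.198 for DPPA4, 0.315 for L1TD1 and 0.137 for ZSCAN10. The ZSCAN10 call also ended without day 3 replicate 3 (0.111) or day 5 replicate 1 (0.0521), and the L1TD1 call without day 3 replicate 1 (0.0803) or day 5 replicate 1 (0.0672).

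SOX2 did not follow a steady decline. After 2.04, 2.02 and 1.11 CPM at day 3 and 4.09, 1.05 and 0.993 at day 5, its libraries held 5.88, 10.8 and 11.1 CPM at day 7, from 30, 90 and 107 counts. Every day 7 library lay above every day 5 library. The log2 change was 2.17 (SE 0.43, edgeR adjusted p = 0.00109), and over 31 alternative settings it lay between 1.81 and 3.18 with adjusted p of 0.0203 or less. At its day 7 mean of 9.28 ± 2.94 CPM (SD, n = 3) SOX2 was at 4.44% of day 0. At day 10 it was back at 2.97 and 1.65 CPM (-2.03, adjusted p = 0.0103), a call that ended without day 10 replicate 1 (0.0626) or replicate 2 (0.108).

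SOX2 is also a gene of neural and foregut cells, and markers of both were read beside it. The summed level of 8 neural markers was 7.81 to 13.1 CPM at day 5, 8.30 to 8.67 at day 7 and 2.71 to 5.79 at day 10, with 0 to 2 of the 8 at 0 counts in a library of day 7 and 2 to 5 in one of day 10. SOX1 had at most 1 count in any library of days 5, 7 and 10, and PAX6 had 4 to 7 counts per library at day 7. Of the 5 neural markers tested, 1 was lower at day 7 than at day 5 and 0 were higher. Of all genes, 5.02% were lower and 5.32% higher in this step. The lower marker was LHX2 (-2.85, edgeR adjusted p = 0.000446), at 2.88, 8.29 and 2.73 CPM at day 5 and 1.18, 0.723 and 0.311 at day 7. LHX2 made up 8.29 of the 13.1 CPM in day 5 replicate 2, so the neural sum also carries its fall. SOX3, a neural relative of SOX2, had 6, 20 and 20 counts in the day 7 libraries and did not pass against day 5 (0.46, edgeR adjusted p = 0.672). It fell to 1 and 2 counts at day 10 (-3.33, adjusted p = 0.0216), the interval in which SOX2 fell. DCX, a gene of young neurons, was higher in all 3 day 7 libraries at 3.73, 4.34 and 4.67 CPM against 1.92, 2.30 and 0.993, without passing (1.18, edgeR adjusted p = 0.156). The sum of 7 endoderm markers was 197 to 549 CPM at day 5 and 365 to 436 at day 7. From day 5 to day 7, 0 of 7 were called in either direction, beside the same 5.02% and 5.32% of all genes. SOX21, another SOX gene, had 3 counts over the libraries of day 5, 50 over those of day 7 and 8 over those of day 10, and was singled out after its values were seen. Their part in the SOX2 result was not tested.

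**Figure D5:**
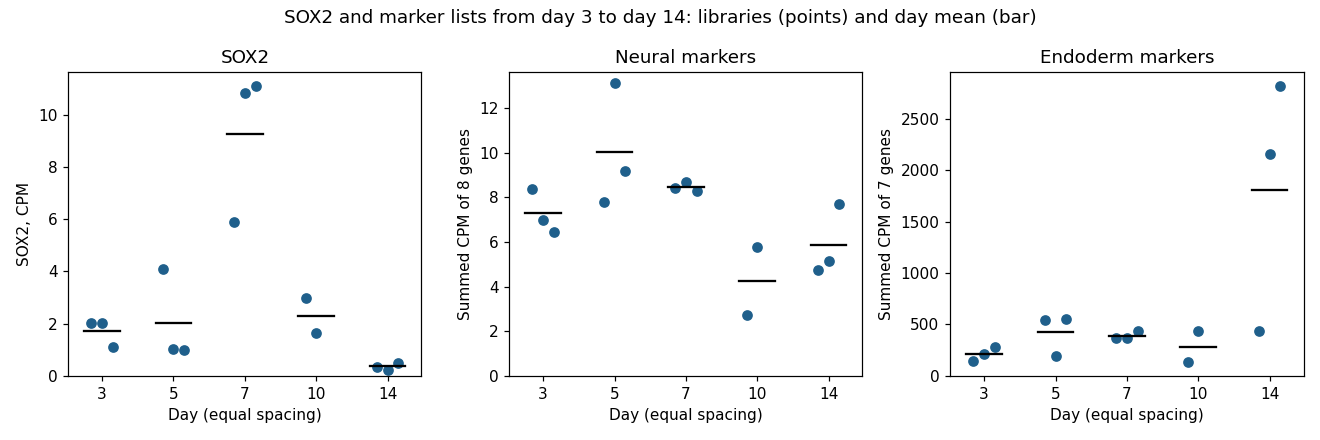
SOX2 in CPM (left), the summed CPM of 8 neural markers (middle) and of 7 endoderm markers (right) from day 3 to day 14, with libraries as points and day means as bars. SOX2 is highest at day 7 in all 3 libraries, while both marker sums at day 7 lie within their day 5 range. The neural sum includes LHX2, which was at 2.88, 8.29 and 2.73 CPM at day 5 and 1.18, 0.723 and 0.311 at day 7.

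Around SOX2, most other factors kept declining from day 5 to day 7. L1TD1 (-1.76, edgeR adjusted p = 4.4e-05), ZFP42 (-1.49, 0.000334) and DPPA4 (-1.43, 0.000999) fell. The DPPA4 call ended in a fit of the libraries of these 2 days alone (adjusted p = 0.0531). That made 3 of 10 factors lower and 1 higher, with 5.02% of all genes lower and 5.32% higher. POU5F1 was at 2.16, 11.6 and 2.59 CPM at day 7, with replicate 2 above the others and inside the day 5 range. Its change of -1.47 did not pass (adjusted p = 0.0687), and without that library it was -2.61 and passed (0.00335). ZSCAN10 was at 5.69, 4.22 and 5.71 CPM, with -1.29 and an adjusted p of 0.0680, or 0.00639 without day 5 replicate 2.

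In the late part of the course ZFP42, DPPA4 and L1TD1 went on falling. ZFP42 held 32.8, 31.8 and 36.7 CPM on day 7 and 5.94 and 9.57 on day 10. On day 14 it held 1.35, 1.91 and 1.64 CPM, and on day 28 0.222, 0.0773 and 0.0721. Each of these steps passed, with log2 changes of -2.12, -2.24 and -3.61 (edgeR adjusted p = 0.000226, 0.000542 and 1.17e-05). ZFP42, the last but SALL4 to go under 10%, had 0.025% of its day 0 level at the end.

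DPPA4 had log2 changes of -1.63, -1.85 and -1.41 over the same 3 steps, each below an edgeR adjusted p of 0.05. The day 10 libraries held 6.72 and 5.79 CPM, those of day 14 0.677, 2.15 and 2.40, and those of day 28 0.591, 0.618 and 0.721. The groups overlapped in the last step, where the call ended without any 1 of 5 of the 6 libraries (adjusted p from 0.0504 to 0.150). The step to day 10 was lost without day 10 replicate 1 (0.0730) or replicate 2 (0.0573).

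L1TD1 was at 6.67, 7.71 and 6.64 CPM at day 7 and 4.65 and 4.96 at day 10 (-0.54, edgeR adjusted p = 0.295). It then fell to 1.81, 1.91 and 1.64 CPM at day 14 (-1.42, adjusted p = 0.0169) and to 0.517, 0.464 and 0.216 at day 28 (-2.14, 0.000268). The day 14 call ended without day 10 replicate 1 (0.0608), day 10 replicate 2 (0.173) or day 14 replicate 3 (0.0584).

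By counts, 4 of 10 factors were lower in each of the last 3 steps and 0 were higher, where 3.50%, 2.11% and 7.78% of all genes were lower and 4.17%, 1.64% and 7.96% higher. Besides those named, ZSCAN10 fell to day 10 (-2.68, edgeR adjusted p = 0.0133, or 0.194 without day 10 replicate 1). SOX2 fell to day 14 (-2.65, adjusted p = 0.0241), a call that ended without any 1 of the 5 libraries of the 2 days (0.0504 to 0.166). Without UTF1, which had almost no reads left, the median step of the other 9 factors was -1.34 to day 10, -1.42 to day 14 and -1.41 to day 28, with all-gene medians between -0.028 and 0.029.

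SALL4 was the factor still well expressed in the cardiomyocyte stages. The day 7 libraries held 140, 159 and 151 CPM and the day 10 libraries 76.7 and 92.1. Day 14 followed with 61.0, 62.8 and 60.8 CPM and day 28 with 17.7, 18.8 and 10.2. The libraries of neighbouring days did not overlap from day 7 on. The step to day 10 (-0.83, edgeR adjusted p = 0.0733) and the step to day 14 (-0.46, 0.362) did not pass, and the step to day 28 did (-1.98, 4.14e-06). The step to day 10 passed under 6 of 31 alternatives: the fit of the 2 days alone (adjusted p = 0.00404), DESeq2 (0.0135), scaling by library totals (0.0325), and without day 5 replicate 2 (0.0278), day 5 replicate 3 (0.0324) or day 28 replicate 3 (0.0475). At day 14 SALL4 was at 10.7 ± 0.183 CPM per kilobase (SD, n = 3), above each other factor, of which ZFP42 was next at 0.616 ± 0.105.

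NANOG and PRDM14 reached a floor early. NANOG had 9, 3, 7 and 16 counts summed over the libraries of days 7, 10, 14 and 28, and PRDM14 had 4, 1, 1, 3 and 2 counts from day 5 on. Most NANOG counts of days 7 and 28 came from 1 library each. At day 7, replicate 2 held 7 of the 9, and it was also the library with the most POU5F1, at 96 counts. At day 28, replicate 1 held 11 of the 16. For PRDM14 at day 7 this is 0.0522% of day 0, with a 95% exact interval of 0.00132 to 0.291% that covers counting error only. For NANOG at day 14 it is 0.111% (0.0446 to 0.228%). Differences between these late days were not detectable at this depth. Germ cells also use several of these genes. The sum of 6 germ cell markers was 46.9 to 49.8 CPM at day 7 and 8.62 to 11.9 at day 10, with KIT alone at 44.6 to 47.5 CPM at day 7 and with DAZL at no more than 1 count and DDX4 at no more than 2 in any library of days 5, 7 and 10. Their part in these levels was not tested.

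Against day 0, the 9 factors other than UTF1 were all lower at days 5, 7, 10, 14 and 28 by edgeR. UTF1 was called lower too, but it had 0 counts at days 5 to 14 and had passed the filter only through day 0. The shares of all genes lower were 20.3%, 25.8%, 22.5%, 27.3% and 28.4%, and those of genes higher 25.1%, 28.3%, 26.9%, 32.6% and 32.1%. At day 28 the log2 changes were -12.27 for POU5F1, -11.85 for ZFP42, -11.39 for L1TD1, -10.60 for ZSCAN10, -10.45 for PRDM14, -10.37 for DPPA4, -10.15 for SOX2 and -9.27 for NANOG. SALL4 had changed by -4.53 and UTF1, with 3 counts left, by -3.77. DESeq2 did not call UTF1 at day 28 (adjusted p = 0.0997). The share of day 0 left was 0.0197% for POU5F1, 0.0821% for SOX2, 0.158% for NANOG and 4.32% for SALL4. The factors other than SALL4 had 2 to 26 counts each at day 28, so their order there is not resolved.

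Over the 8 day means of log2(CPM + 0.5), the correlation between pairs of factors ran from 0.332 for SALL4 with UTF1 to 0.993 for ZSCAN10 with DPPA4. These values describe shared timing over 8 points from the same libraries and carry no test. Among 10518 other genes with at least 20 CPM on some day, the most alike to POU5F1 were KLRG2 (r = 0.994) and MMP17 (0.994). To NANOG they were TNFRSF8, a receptor also known as CD30 (0.997), and LARS2 (0.997). TNFRSF8 went from 44.7 and 33.6 CPM at days 0 and 1 to 0.582 at day 3. A correlation does not weigh the size of a fall, and LARS2 went only from 132 CPM at day 0 to 70.2 at day 28.

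The genes most like SOX2 were MYO5C (0.969) and MAP7 (0.961), the weakest match of the 10. For PRDM14 they were PIM2 (0.997), a kinase, and MIR124-1HG (0.996). ZFP42 was most like SCNN1A (0.994) and CYYR1 (0.993), ZSCAN10 like UMPS (0.993) and LPCAT1 (0.993), and SALL4 like TOP1MT (0.994) and GALNT14 (0.992). DPPA4 was closest to KDM2B (0.997) and to DNMT3B (0.995), a DNA methyltransferase, which went from 3250 CPM at day 0 to 1491, 367 and 189 at days 1, 3 and 5. L1TD1 was closest to SMARCC1 (0.988) and TAF5 (0.987), and UTF1 to SLC38A9 (0.994) and ZNF398 (0.992). Several of these genes fell far less than the factors. From day 0 to day 28, SMARCC1 went from 539 to 188 CPM, UMPS from 118 to 21.2 and KDM2B from 161 to 25.1.

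Other genes of the network were read as 4 lists. Among 8 signals and secreted factors, 1 was lower at day 1, 3 were higher and 4 did not pass, beside the 16.5% of all genes lower and 15.3% higher given above. The lower one was FGF2, the growth factor of stem cell media (-1.93, edgeR adjusted p = 0.000149). TDGF1, a NODAL co-receptor, went from 601 ± 20.7 to 363 ± 28.8 CPM (-0.73, adjusted p = 0.164). SFRP2, a secreted WNT modulator, was at 238 ± 19.8 and 223 ± 44.8 CPM.

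The 3 that were higher, named for their direction, were the ligands NODAL (5.95, edgeR adjusted p = 1.05e-13), FGF4 (6.96, 5.13e-11) and GDF3 (1.07, 0.0165). NODAL went from 7.13 ± 0.517 to 440 ± 87.4 CPM at day 1. From day 1 to day 3, 6 of the 8 were lower and 1 higher, with a list median of -4.32, where 19.0% of all genes were lower and 18.2% higher. SFRP2 (-3.89, adjusted p = 5.35e-11) and TDGF1 (-1.76, 0.00159) fell in this step, and GDF3 fell by 6.91 on the log2 scale.

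Of 12 transcription and chromatin factors of the primed state, 6 were lower and 2 higher at day 1, against the same 16.5% and 15.3% of all genes. DNMT3B (-1.12, edgeR adjusted p = 0.000764), JARID2, a partner of the Polycomb complex (-2.13, 4.26e-06), and SALL2, a relative of SALL4 (-1.06, 0.0038), fell. TRIM28, a corepressor, was at 929 ± 49.7 and 1018 ± 203 CPM (0.13, adjusted p = 0.762). At day 28 all 12 were lower than at day 0, where 28.4% of all genes were lower and 32.1% higher.

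Of 11 genes of naive pluripotency, 10 were tested, and 4 were lower and 3 higher at day 1, with 16.5% and 15.3% for all genes. DPPA2, the partner of DPPA4, fell from 11.3 ± 0.831 to 2.77 ± 0.760 CPM (-2.02, edgeR adjusted p = 0.000116). DPPA3, a maternal-effect protein, fell from 4.06 ± 0.355 to 0.393 ± 0.0731 CPM (-3.32, edgeR adjusted p = 4.5e-06), and SUSD2, a surface marker of naive cells, rose from 2.81 ± 0.373 to 8.89 ± 1.57 (1.65, 0.00117). TFCP2L1 (0.62, adjusted p = 0.232) did not pass. At day 28, 7 were lower than day 0 and 3 were higher, beside 28.4% and 32.1% of all genes, and the list median was -2.98.

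Of 12 other stem cell markers, 7 were lower and 1 higher at day 1, again beside 16.5% and 15.3% of all genes. CD24 (-1.91, edgeR adjusted p = 3.25e-06), PODXL (-2.14, 1.14e-06) and TRIM71 (-1.41, 0.00512) fell. LIN28A, an RNA-binding protein, had a mean of 3478 ± 107 CPM on day 0, then 3470 ± 901, 2742 ± 497 and 2788 ± 1016 CPM on days 1, 3 and 5. It then went to 1199 ± 47.3 CPM at day 7, a step that passed (-1.22, adjusted p = 0.0106), and to 0.668 ± 0.319 at day 28. All 12 were lower at day 28 than at day 0, where 28.4% of all genes were.

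Reads of copies and overlapping genes could enter some of these counts. At day 0, NANOG had 14263 counts summed over the libraries, its processed copy NANOGP8 435 and NANOGP1 271. POU5F1 had 93272 counts, against 241 for POU5F1B, 311 for POU5F1P3 and 111 for POU5F1P4. TCF19, which overlaps POU5F1 on the opposite strand, had 2222. SOX2-OT, which spans SOX2 on the same strand, had 183 counts at day 0 and 15 at day 7, against 11879 and 227 for SOX2. The pseudogene ENSG00000237227 within L1TD1 on the opposite strand had 239 counts, against 62727. At late days the copies weigh more: POU5F1B had 64 counts at day 28, where POU5F1 had 13, and NANOGP4 had 26, where NANOG had 16. SOX2-OT had 23 counts at day 14 and 56 at day 28, where SOX2 had 9 and 7. The last POU5F1, NANOG and SOX2 values are therefore uncertain in how reads were split.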

How the data were processed

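The authors counted reads per gene: per the submitters' processing notes, Trim Galore 0.65 cut reads to 50 bases, STAR 2.7.0 aligned them to GRCh38 and HTSeq-count made the table from GENCODE v38. The strand setting of that count is not given in the sources used here. The deposited table holds raw counts, all whole numbers. It had 57521 genes, of which 44 pseudoautosomal copies with 0 counts were dropped. Symbols and positions came from GENCODE v44.

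A single fit of all 23 libraries had the day as its factor. It used edgeR 4.0.16 (R 4.3.3, limma 3.58.1) with filterByExpr at a minimum of 10 counts, TMM, robust quasi-likelihood F-tests of 13 comparisons and Benjamini-Hochberg adjustment over 22245 genes. Calls have adjusted p under 0.05. The SE beside a log2 change is the absolute change divided by the square root of its F statistic. It is not a standard error fitted by the model. Ratios were tested by exact permutation over libraries. Alternatives were 3 scalings, 2 filters, DESeq2 1.42.0, a replicate block, fits of single pairs of days, and fits without each library. On simulated data for day 1 against day 0 (20102 genes), the test recovered 17 of 92 changes of 2-fold and 77 of 95 of 4-fold and called 5 unchanged genes. For day 7 against day 5 (20124 genes) it recovered 17 of 92 and 69 of 96 and called 4. Each simulated gene had the same mean on all days, apart from the few genes changed. In the real data 16.5% of genes were called lower and 15.3% higher at day 1. These recoveries therefore do not give the power of the test in the real data.

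Members and gene lists were chosen with earlier results of these data known. Named genes are the 10 factors, the 2 most alike genes of each, and the 4 members of each list with the highest day 0 CPM. NODAL, FGF4, GDF3 and SOX21 were named after their values were seen. So were the single markers KDR, SOX1, PAX6, SOX3, DCX, LHX2, KIT, DAZL and DDX4. Promoters are RefSeq entries.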

Additional observations from a re-analysis of the deposited data

How the results depend on the processing

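In tests of single factors under alternative settings, 2657 kept their direction and side of the threshold, 27 passed only under the alternative, 35 passed only in the reported fit, and 18 that passed in neither changed sign or moved to or from 0. The number of factors lower at day 1 was 8 in a fit of the libraries of the 2 days alone, and 3 to 6 when 1 library was left out. For day 5 against day 3 it was 1 in the fit of 2 days, 7 with no filter, 7 with DESeq2 and 4 to 6 without 1 library, and for day 7 against day 5 it was 5 with no filter, 2 in the fit of 2 days, 4 with DESeq2 and 3 to 5 without 1 library. For day 3 against day 1 it stayed 8, and for day 28 against day 0 it was 9 to 10. DESeq2 called 4 factors lower at day 1, giving no adjusted p for UTF1. The count of factors under 10% by day 1 was 0 when the highest library was set against the lowest of day 0, and 0 to 1 without 1 library. By day 3 it was 5 to 6, and the count under 50% by day 5 was 9 to 10.

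With the median of the 10 factors as reference in place of POU5F1, the day 1 ratio became positive for NANOG (0.20), ZFP42 (0.34), ZSCAN10 (0.34), SALL4 (0.99) and DPPA4 (0.047), by construction, since that median itself fell. With a pseudocount of 2 the UTF1 ratio at day 3 was 0.42. Without 1 library the SALL4 ratio at day 1 ran from -0.14 to 0.065 and the DPPA4 ratio at day 3 from -0.27 to 0.39.

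Scaling by library totals alone moved the median of all genes by 0.23 for day 3 against day 1, by 0.15 for day 7 against day 5, by -0.18 for day 10 against day 7 and by -0.21 for day 28 against day 14. The shares of calls that were lower went from 51.1% to 36.0%, 48.5% to 32.1%, 45.6% to 68.0% and 49.4% to 68.0%. No factor's call was lost under it. With upper-quartile factors that share went from 49.4% to 59.8% in the last step. Same-numbered libraries did not deviate together: over 77 pairs the median correlation was -0.0007, and 9 exceeded 0.1, against 0.0037 over 154 pairs with other numbers, of which 19 exceeded 0.1. With the replicate block the factors lower were 5, 8, 5, 3 and 10 in the 5 comparisons above, as without it. Depth limits UTF1 throughout, PRDM14 from day 5, NANOG from day 7 and all factors but SALL4 after day 10.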
